A study of Homo sapiens with 20 samples.

Results

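The mRNAs of 5 human genes that act in start codon selection were followed through 4 immunoprecipitations of initiation complexes. They are EIF1 (ENSG00000173812), its paralog EIF1B (ENSG00000114784), EIF1AX (ENSG00000173674), EIF5 (ENSG00000100664) and EIF5B (ENSG00000158417), 5 of the 19029 gene IDs counted in each library. The genes were chosen by name, with the level of EIF1 in the eIF1 immunoprecipitates already known, so the comparison of those immunoprecipitates with the others is given as a description without a test. The factors precipitated are proteins, whereas the values below count mRNA fragments held in the complexes. A high value of EIF1 therefore describes EIF1 mRNA, not the eIF1 protein.

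eIF1 and eIF1A, the products of EIF1 and EIF1AX, bind the small ribosomal subunit and keep it in an open state in which it can scan along the 5′ leader of an mRNA. Pairing of the initiator tRNA with a start codon is followed by release of eIF1, and eIF1 in this way makes initiation at poor start sites less frequent. eIF5, the product of EIF5, is the GTPase-activating protein of eIF2 and acts in favour of start codon recognition, opposite to eIF1. eIF5B is the GTPase that joins the large subunit to the small one. EIF1 and EIF5 are known for feedback through start codon context: the EIF1 start codon lies in a poor context and is used less when eIF1 is abundant.

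The cells were HEK 293T, a transformed human embryonic kidney line, labelled WT in every library. They received 5 µM i14G1-12 or the solvent DMSO for 1 h. The series is titled as a study of an eIF1-eIF4G1 inhibitor, which pairs the compound with 2 of the factors precipitated. After formaldehyde crosslinking, RNase I digestion and ultracentrifugation, complexes were precipitated through the HA tag of eIF1, through eIF4G1, through the HA tag of eIF2a or through eIF3, and the mRNA footprints in them were sequenced (selective translation complex profiling). There were 3 libraries with i14G1-12 and 3 with DMSO for eIF1 and again for eIF4G1, and 2 with i14G1-12 and 2 with DMSO for eIF2a and again for eIF3, 20 in all. The labels do not say how the tagged factors were introduced. No input library was used here, so the values are relative to the other mRNAs of the same precipitate. More copies of an mRNA and more complexes per copy cannot be told apart.

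Depth differed between and within the groups. Total counts ran from 503668 to 600524 in eIF1 libraries with i14G1-12 and from 806429 to 1161512 with DMSO, and for eIF4G1 from 321355 to 1085854 with i14G1-12 and from 243145 to 1003544 with DMSO. For eIF2a they ran from 152354 to 244508 with i14G1-12 and from 10033 to 269816 with DMSO, and for eIF3 from 239495 to 276877 with i14G1-12 and from 59179 to 582437 with DMSO. The library of 10033 counts, eIF2a with DMSO replicate 2, held 14 counts of EIF1, 4 of EIF5 and 1 of EIF1B, so its values for these genes are imprecise. The columns of the eIF1 libraries name only the group, and those libraries are called a, b and c with no pairing between treatments. Whether libraries of a group were separate cultures is not in the labels, and the spread behind the p-values is that between libraries and may be technical.

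The annotated 5′ ends of the 5 genes are shown because the 5′ leader, which starts there, is where the scanning complexes of this assay load. The windows are from RefSeq on GRCh38.p14, written 5′ to 3′ on the strand of the gene, with the 15 bases before the annotated start in lower case and the first 15 transcribed bases in capitals. All 5 genes were matched by symbol, and EIF5 has 2 annotated starts.
EIF1, chr17:41688870-41688899, plus strand: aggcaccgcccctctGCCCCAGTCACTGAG
EIF1B, chr3:40309692-40309721, plus strand: tcggccattttgtgcGAGAAGCCGCAGCGC
EIF1AX, chrX:20141824-20141853, minus strand: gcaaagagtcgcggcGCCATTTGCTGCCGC
EIF5, chr14:103334222-103334251, plus strand: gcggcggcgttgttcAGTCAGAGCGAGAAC
EIF5, chr14:103334873-103334902, plus strand: atcccggcacccctcGGCCGTGTGTCGCTT
EIF5B, chr2:99337374-99337403, plus strand: gcgcactgagaactcACACCATATGTGTCC
On the strand of the gene, the arrangement known from TOP mRNAs (a C as the first transcribed base, then 4 bases that are each C or T) was present in 0 of these 6 windows and at 4.07% of the 35116 annotated starts in the same table. The pattern was read at the annotated first base only. These windows were not matched to the sequences on which reads were counted, which are 2338 nt long for EIF1, 987 for EIF1B, 4414 for EIF1AX, 5710 for EIF5 and 5741 for EIF5B.

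EIF1 mRNA was the leading species of the eIF1 immunoprecipitates. It took 16.7%, 6.24% and 7.66% of all counts in the eIF1 libraries a, b and c with i14G1-12, and 14.01%, 5.45% and 7.22% in those with DMSO. In the 14 libraries of the other factors its share lay between 0.0848% and 0.455%. The lowest eIF1 library was thus far above the highest of the others, and EIF1 ranked 1 among all genes by counts per length in each of the 6 eIF1 libraries. In the other 14 libraries it ranked between 40 and 187, so it was an abundant mRNA there too.

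**Figure D1:**
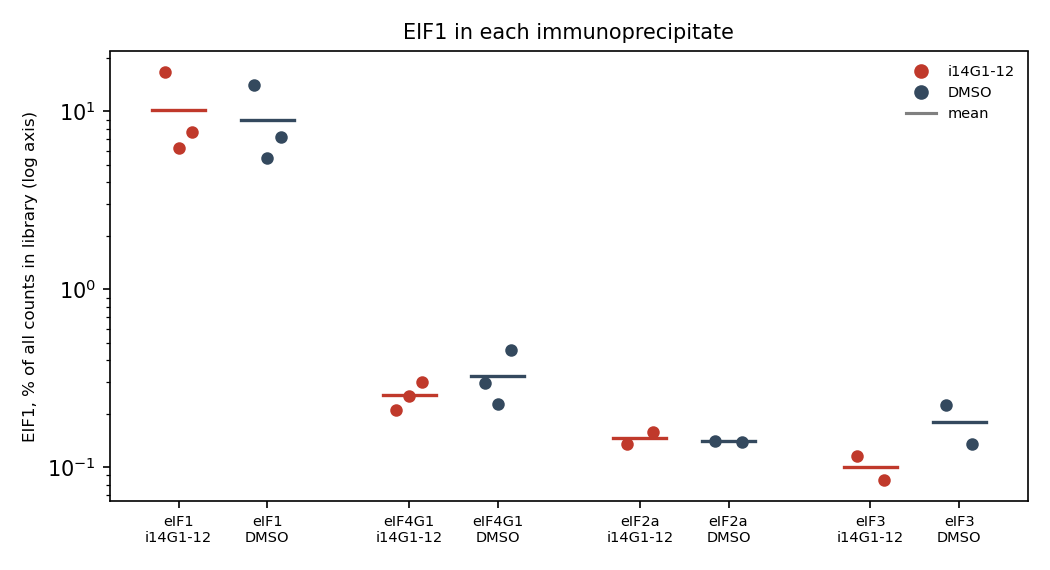
EIF1 as a percent of all counts in each of the 20 libraries, on a log axis, by precipitated factor and treatment; each point is a library and each bar a group mean. The 6 eIF1 libraries lie between 5.45% and 16.7% and the other 14 at 0.455% or below.

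In the eIF1 libraries, counting error was small beside the spread between libraries. The exact (Clopper-Pearson) 95% binomial interval of the 16.7% share ran from 16.6% to 16.8%, for counting error only. In the shallow eIF2a library with DMSO, 14 counts gave an interval from 0.0763% to 0.234%. As CPM, counts scaled for library depth with TMM factors, EIF1 ranged from 58898 to 275767 in the eIF1 libraries with a median of 86600, against 722 to 4314 with a median of 1769.9 in the others, a ratio of medians of 48.9. In the fit to all 20 libraries EIF1 was 6.59 log2 units higher in eIF1 complexes than in the mean of the other factors with i14G1-12, and 5.95 units higher with DMSO. Leaving out library a of the eIF1 group gave 5.73 with i14G1-12 and 5.33 with DMSO. Scaling by total counts alone gave 6.03 and 5.45, and moved the median difference of all genes by -0.41 and -0.37. The precipitated factor, its HA tag, the cells and the preparation of the libraries cannot be told apart in this difference, and the counts do not separate mRNA of a tagged eIF1 from that of the endogenous gene. The eIF2a complexes, also taken through an HA tag, held 0.136% and 0.158% of their counts as EIF1 with i14G1-12 and 0.140% in each library with DMSO. The part of the tag in the EIF1 level was not tested.

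The paralog EIF1B, which encodes a protein closely related to eIF1, did not share an excess of that size. EIF1B was at 709.6, 185 and 261 CPM in eIF1 libraries with i14G1-12 and at 323, 358 and 216 CPM in those with DMSO. The other 14 libraries ranged from 48.7 to 284 CPM, with a median of 172 against 292 in the eIF1 libraries. The sets overlapped, and the ratio of medians was 1.70 where that of EIF1 was 48.9. Set against EIF1 in the same library, there were 2.57, 2.54 and 2.85 EIF1B counts per 1000 EIF1 counts in eIF1 libraries with i14G1-12 and 1.75, 6.09 and 2.64 with DMSO. The other libraries held 20.7 to 127, so every one of them had a larger share of EIF1B relative to EIF1. EIF1 is the divisor, and its level in the eIF1 libraries was known beforehand. This separation is therefore not a further result about EIF1B. The sources used here do not give how reads that fit both genes were assigned, and the split of the pair carries that uncertainty. The library with the highest EIF1 also had the highest EIF1B, and without it the difference in EIF1B with i14G1-12 was 0.68 on the log2 scale in place of 1.48.

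**Figure D2:**
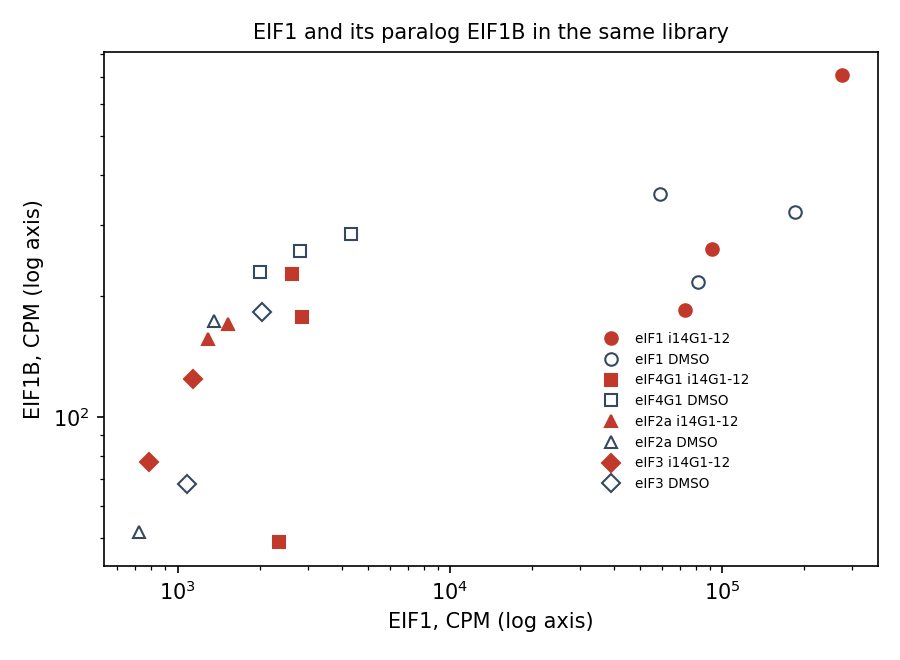
EIF1B against EIF1 in the same library, both in TMM-scaled CPM on log axes; filled points are i14G1-12, open points DMSO, and the shape gives the precipitated factor. The eIF1 libraries stand apart along the EIF1 axis (58898 CPM and above) and overlap the others along the EIF1B axis (185 to 709.6 CPM against 48.7 to 284 CPM).

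EIF5, which encodes the factor that opposes eIF1 at the start codon, was also higher in every eIF1 library than in any other library on the CPM scale. It was at 510.2, 459 and 439 CPM with i14G1-12 and at 610.4, 587 and 551 CPM with DMSO in eIF1 complexes. The other 14 libraries lay between 136 and 421 CPM. How many of all genes separated in this way was not counted, so the separation is not shown to be particular to EIF5. The ratio of medians was 2.21, from 531 CPM in the eIF1 libraries against 240.3 CPM in the others. The nearest of the others were eIF2a libraries, at 206 to 421 CPM, while those of eIF4G1 and eIF3 lay between 136 and 284 CPM. As a share of raw counts, the eIF1 libraries (0.0308% to 0.0543%) overlapped the eIF2a libraries (0.0303% to 0.0434%) and stayed above those of eIF4G1 and eIF3 (0.0150% to 0.0290%). In the joint fit EIF5 was 0.89 log2 units higher in eIF1 complexes than in the mean of the others with i14G1-12 (0.79 to 1.01 with any 1 library left out) and 1.21 units higher with DMSO (1.13 to 1.52). With total counts as the scale the values were 0.46 and 0.81, with the same shift of all genes.

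The levels of EIF1AX and EIF5B in the eIF1 libraries overlapped those in the rest. EIF1AX, the gene of eIF1A, ranged from 255 to 708 CPM in the eIF1 libraries and from 219 to 682 CPM in the others. Its fitted difference was -0.19 with i14G1-12 and 0.21 with DMSO. With total counts as the scale these were -0.57 and -0.19, and the DMSO value thus changed sign. EIF5B, the gene of the subunit-joining GTPase, ranged from 106 to 174 CPM against 0 to 206 CPM. Its fitted difference was -0.39 with i14G1-12 and 0.24 with DMSO, and with total counts -0.79 and -0.11. The 0 was in the shallow eIF2a library, where no count allows up to 155 CPM (3 counts).

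**Figure D3:**
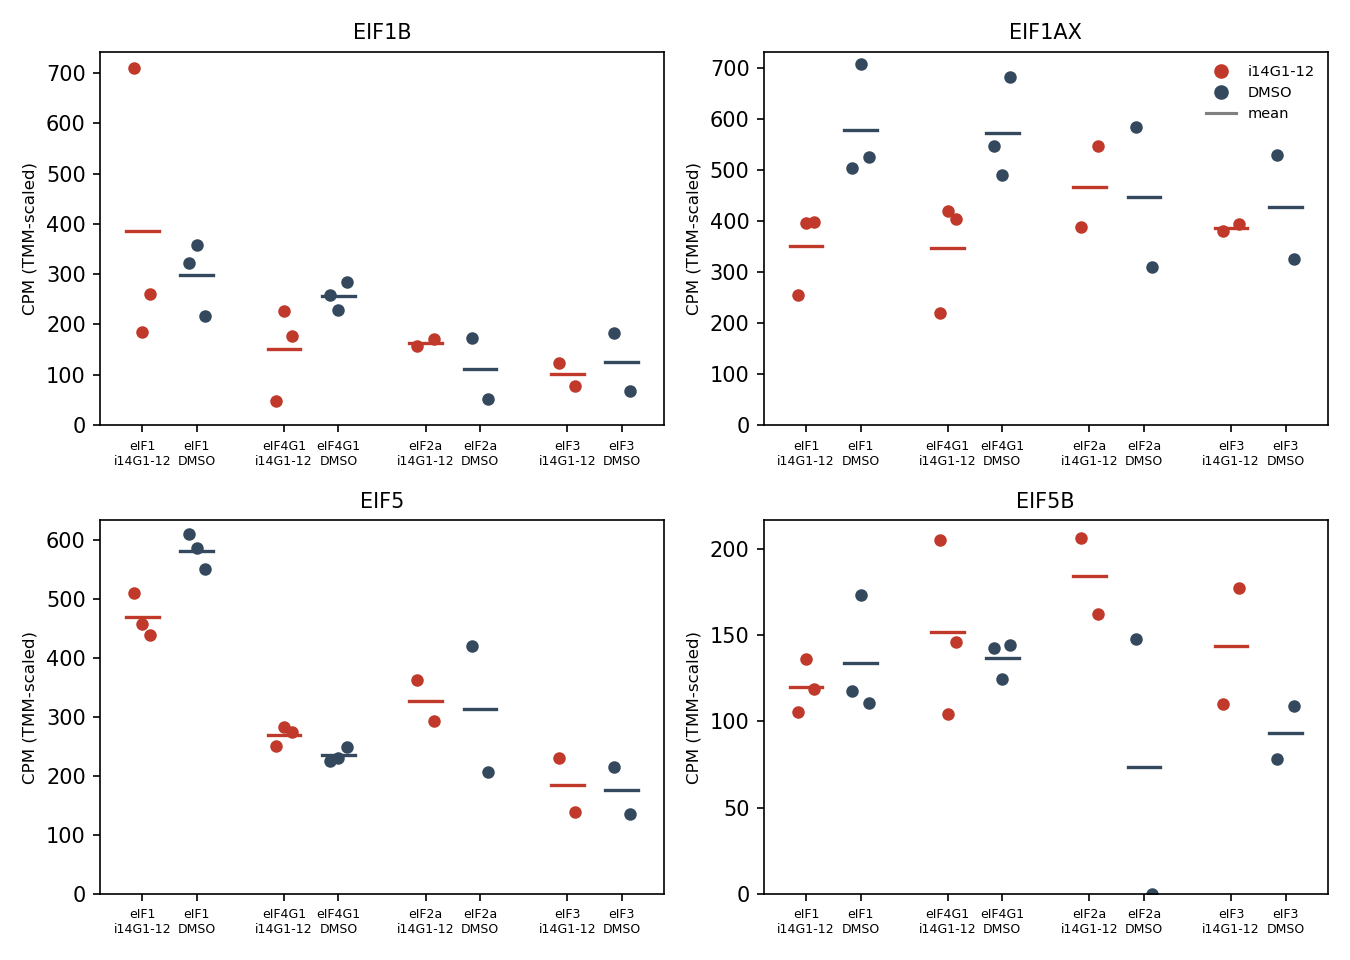
TMM-scaled CPM of EIF1B, EIF1AX, EIF5 and EIF5B in each of the 20 libraries, on linear axes that start at 0; points are libraries and bars are group means. EIF5 lies at 439 CPM or above in the eIF1 libraries and at 421 CPM or below elsewhere, while the other 3 genes overlap; EIF1AX is lower with i14G1-12 than with DMSO in all libraries of eIF1 and of eIF4G1.

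Per length of the counted sequence, the order of the genes was the same in both sets of libraries. The medians in eIF1 libraries were 37040.0 CPM per kb for EIF1, 296 for EIF1B, 102 for EIF1AX, 92.9 for EIF5 and 20.6 for EIF5B. In the other libraries they were 757 for EIF1, 174 for EIF1B, 93.3 for EIF1AX, 42.1 for EIF5 and 25.0 for EIF5B. EIF1AX and EIF5 thus stood close together in eIF1 complexes, and further apart in the others.

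Across the 8 groups, the mean EIF1 level on the CPM scale was 146694 ± 112170 for eIF1 with i14G1-12 and 108302 ± 66802 for eIF1 with DMSO (SD, n = 3 each), and these overlapped. Next came eIF4G1, with 2615 ± 255 with i14G1-12 and 3044 ± 1170.1 with DMSO (SD, n = 3 each), which overlapped each other. The eIF2a and eIF3 groups followed between 961 and 1567 CPM, and neighbours in that order overlapped. For EIF5 the order of the means was eIF1 with DMSO, eIF1 with i14G1-12, the 2 eIF2a groups (328 ± 49.1 with i14G1-12 and 314 ± 152 with DMSO, SD, n = 2 each), the 2 eIF4G1 groups (269 ± 17.0 and 235 ± 12.6, SD, n = 3 each) and the 2 eIF3 groups (185 ± 64.8 and 176 ± 56.0, SD, n = 2 each). Among neighbours, the eIF1 group with DMSO did not overlap that with i14G1-12, nor did the 2 eIF4G1 groups overlap each other. The eIF1 and eIF2a groups with i14G1-12 also did not overlap. Shares over all genes are given below for the 2 pairs of treatments, and none was counted for eIF1 against eIF2a.

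Among the other 3 factors, the group means of EIF1 were highest in eIF4G1 complexes. eIF4G1 is the scaffold of the cap-binding complex. With i14G1-12, EIF1 stood at 2352, 2633 and 2859.9 CPM in eIF4G1 complexes, against 1295 and 1529.9 CPM for eIF2a and 1138 and 783 CPM for eIF3. With DMSO, the values were 2808, 2009.8 and 4314 CPM for eIF4G1, against 1364 and 722 CPM for eIF2a and 2047 and 1087 CPM for eIF3. The values of eIF4G1 did not overlap with those of the other 2 with i14G1-12. With DMSO only the highest eIF3 library exceeded the lowest eIF4G1 library. A share of all genes that stood apart in the same way was not counted. The difference between eIF4G1 and the mean of eIF2a and eIF3 was 1.17 on the log2 scale with i14G1-12 (95% interval 0.38 to 1.95, unadjusted p = 0.00429, edgeR adjusted p = 0.189) and 1.20 with DMSO (0.40 to 1.99, unadjusted p = 0.00399, edgeR adjusted p = 0.947). Neither passed the adjusted threshold of 0.05, and over the alternatives the adjusted p with i14G1-12 ran from 0.0558 to 0.703. For EIF5 the corresponding differences were 0.13 and -0.15, and the intervals, -0.47 to 0.74 and -0.78 to 0.49, included 0.

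By the fitted differences, eIF2a complexes stood above the other 2 for EIF5 and eIF3 complexes below, and none of these differences passed the adjusted test. EIF5 in eIF2a complexes was 0.55 log2 units above the mean of eIF4G1 and eIF3 with i14G1-12 (95% interval -0.12 to 1.22, edgeR adjusted p = 0.691) and 0.79 above it with DMSO (0.05 to 1.52, unadjusted p = 0.0357, edgeR adjusted p = 0.9999). The eIF2a libraries with DMSO were at 421 and 206 CPM, the latter from 4 counts and below every eIF4G1 library with DMSO (225 to 249 CPM). With any 1 library left out, the DMSO difference ran from -0.072 to 1.04. EIF5 in eIF3 complexes differed from the mean of eIF4G1 and eIF2a by -0.68 with i14G1-12 (-1.38 to 0.02, edgeR adjusted p = 0.365) and by -0.64 with DMSO (-1.38 to 0.10, edgeR adjusted p = 0.998). For EIF1, the difference of eIF2a from the mean of eIF4G1 and eIF3 was -0.17 with i14G1-12 (-1.05 to 0.72) and -0.99 with DMSO (-1.95 to -0.03, unadjusted p = 0.0445, edgeR adjusted p = 0.9999). EIF1 in eIF3 complexes was lower than the mean of eIF4G1 and eIF2a with i14G1-12 (difference -1.0, interval -1.92 to -0.08, edgeR adjusted p = 0.288), and the difference was -0.21 with DMSO (-1.11 to 0.69). In each of these 6 contrasts edgeR called 0 of the 5 genes, and so did DESeq2. At an unadjusted p below 0.05 the counts were 1 and 1 for eIF4G1, 0 and 2 for eIF2a, and 1 and 0 for eIF3, with i14G1-12 given before DMSO. Over all 9426 genes tested, the adjusted calls were 0.35% and 0.0955% for eIF4G1, 0.0424% and 0.0637% for eIF2a, and 1.37% and 0.0212% for eIF3. At the unadjusted threshold they were 12.7% and 4.48%, 8.14% and 3.82%, and 14.5% and 3.8% in the same order.

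The question of the treatment was whether i14G1-12 altered these mRNAs within the complexes of a factor. edgeR's quasi-likelihood test called 0 of the 5 genes in eIF1 complexes, where 0.456% of 8338 genes were called, and 0 in eIF4G1 complexes, where 0.347% of 7203 genes were called. It also called 0 of the 5 in eIF2a complexes, where 0% of 4719 genes were called, and 0 in eIF3 complexes, where 0.0159% of 6300 were. At an unadjusted p below 0.05 the count was 1 for eIF1 (background 12.4%), 1 for eIF4G1 (8.65%), 0 for eIF2a (1.84%) and 0 for eIF3 (1.75%). The gene was EIF1AX in both cases. DESeq2 called EIF1AX in eIF1 complexes, where it called 6.25% of the 2783 genes to which it gave an adjusted p. It called none of the 5 in eIF4G1 complexes (9.65% of 1005 genes), eIF2a complexes (0% of 13446) or eIF3 complexes (0.0203% of 14784).

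EIF1AX had 255, 397 and 398 CPM in eIF1 complexes with i14G1-12, against 503, 708 and 524 CPM with DMSO. In eIF4G1 complexes it had 219, 419 and 404 CPM with i14G1-12, against 548, 490.4 and 682 CPM with DMSO. In both immunoprecipitates every i14G1-12 library lay below every DMSO library, which was so for 9.61% of all genes tested in eIF1 and for 6.87% in eIF4G1. The log2 difference was -0.74 in eIF1 complexes (95% interval -1.22 to -0.27, SE 0.23, unadjusted p = 0.00366, edgeR adjusted p = 0.143). It was -0.70 in eIF4G1 complexes (-1.33 to -0.07, SE 0.30, unadjusted p = 0.0305, edgeR adjusted p = 0.501). The 2 immunoprecipitations had DMSO libraries of their own, and the difference between their effects was -0.01 (95% interval -0.94 to 0.91, edgeR adjusted p = 0.9999).

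The direction of EIF1AX in these 2 immunoprecipitates held in every alternative run, but its size leaned on single libraries. In eIF1 complexes DESeq2 gave an adjusted p of 0.0380, and the adjusted p over the alternatives ran from 0.0380 to 0.683. The log2 difference was between -0.85 and -0.55 with any 1 library left out. In eIF4G1 complexes DESeq2 gave an adjusted p of 0.0907, and the difference was -0.47 without the i14G1-12 library 1, in which EIF1AX had 63 counts. The i14G1-12 libraries of eIF1 were all shallower than the DMSO libraries, with 87, 204 and 168 EIF1AX counts against 444, 620 and 374; the part of depth in the difference was not tested.

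In the other complexes EIF1AX did not separate the treatments on the CPM scale. It had 388 and 547 CPM with i14G1-12 against 583 and 310 CPM with DMSO for eIF2a, and 379 and 394 CPM against 529 and 326 CPM for eIF3. The log2 differences were -0.19 (-0.92 to 0.53) and -0.21 (-1.48 to 1.05). With 2 libraries a group, these intervals include the values of -0.74 and -0.70 found for eIF1 and eIF4G1. The eIF2a fit took its spread from all genes together, with 9438 degrees of freedom against 17.1 for eIF3. The intervals of treatment effects in eIF2a complexes thus do not measure the spread of each gene between its own libraries. As a share of raw counts in eIF2a complexes, EIF1AX was at 0.0407% and 0.0564% with i14G1-12. Both lay below the 0.0600% and 0.0598% with DMSO, the latter from 6 counts in the shallow library. The share of all genes for which this held was not counted.

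EIF1 itself overlapped between treatments in the eIF1 complexes, with the per-library shares given above. Its log2 difference was 0.41 (95% interval -0.49 to 1.30, edgeR adjusted p = 0.754) and took both signs, -0.39 to 1.00, when single libraries were left out. In eIF4G1 complexes it was -0.21 (-0.78 to 0.37, edgeR adjusted p = 0.900), with 2352, 2633 and 2859.9 CPM with i14G1-12 inside the range of 2009.8 to 4314 CPM with DMSO. In eIF2a complexes it was 0.23 (-0.53 to 0.99) and in eIF3 complexes -0.76 (-2.16 to 0.65), with 1138 and 783 CPM with i14G1-12 against 2047 and 1087 CPM with DMSO. On that common scale the eIF3 groups overlapped, and with the eIF3 libraries scaled on their own both i14G1-12 libraries lay below both DMSO libraries, as did 13.5% of the genes tested.

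EIF5 differed between treatments in opposite directions in eIF1 and eIF4G1 complexes, and passed the test in neither. In eIF1 complexes all i14G1-12 libraries (510.2, 459 and 439 CPM) lay below all DMSO libraries (610.4, 587 and 551 CPM), a log2 difference of -0.34 (95% interval -0.76 to 0.07, edgeR adjusted p = 0.512). In eIF4G1 complexes all i14G1-12 libraries (251, 284 and 274 CPM) lay above all DMSO libraries (225, 231 and 249 CPM), a log2 difference of 0.21 (-0.38 to 0.79, edgeR adjusted p = 0.901). As a share of raw counts the eIF4G1 groups overlapped. EIF5 was there at 0.0224%, 0.0272% and 0.0290% with i14G1-12, against 0.0238%, 0.0260% and 0.0263% with DMSO. With total counts as the scale, the eIF4G1 difference was 0.055. Every i14G1-12 library lay below every DMSO library for 9.61% of the genes tested in eIF1, and above for 7.4% of those tested in eIF4G1. The effect in eIF1 minus that in eIF4G1 was -0.51 (-1.40 to 0.37, unadjusted p = 0.250, edgeR adjusted p = 0.9999). On the CPM scale EIF5 overlapped between treatments in eIF2a and eIF3 complexes, with differences of -0.28 (-0.97 to 0.42) and -0.01 (-1.30 to 1.27). As a share of raw counts in eIF2a complexes, EIF5 was at 0.0381% and 0.0303% with i14G1-12. Both lay below the 0.0434% and 0.0399% with DMSO, the latter from 4 counts. For how many genes this held was not counted.

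The counts of EIF5 per 100 counts of EIF1AX put both genes of a library on 1 ratio that no scaling of the library alters. There were 114, 67.7 and 67.7 in eIF4G1 complexes with i14G1-12, against 41.1, 47.2 and 36.6 with DMSO, with no overlap. In eIF1 complexes the ratio was 116 and 110.1 in libraries b and c with i14G1-12, against 121, 82.9 and 105 with DMSO, and library a was higher, with 174 EIF5 and 87 EIF1AX counts. The eIF1 groups overlapped. So did those of eIF2a, with 93.5 and 53.6 with i14G1-12 against 72.2 and 66.7 with DMSO. For eIF3 the ratios also overlapped, with 60.7 and 35.3 against 40.7 and 41.7. The ratio was chosen after the values of the genes were seen and was not tested. How often other pairs of genes separate in this way was not counted.

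EIF1B was at 48.7, 226.3 and 177 CPM in eIF4G1 complexes with i14G1-12, against 259, 229 and 284 CPM with DMSO. The i14G1-12 libraries were all the lower ones, as for 6.87% of the genes tested. The lowest value rested on 14 counts. The log2 difference was -0.73 (95% interval -1.5 to 0.05, edgeR adjusted p = 0.624), and it was -0.35 without the i14G1-12 library 1. In eIF1 complexes it was 0.30 (-0.36 to 0.95, edgeR adjusted p = 0.753), and the library a value of 709.6 CPM decided its sign: it was -0.44 without that library. The effect in eIF1 minus that in eIF4G1 was 1.09 (-0.01 to 2.18, unadjusted p = 0.0518, edgeR adjusted p = 0.9999). It was 0.31 without library a of eIF1 with i14G1-12 and 0.68 without library 1 of eIF4G1 with i14G1-12. The interaction called 0 of the 5 genes with edgeR and with DESeq2, and 0 at an unadjusted p below 0.05. Over all 9426 genes, edgeR called 0.0318%, and 3.15% had an unadjusted p below 0.05.

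EIF5B, the least abundant of the 5, was at 106, 136 and 119 CPM in eIF1 complexes with i14G1-12 and at 118, 174 and 111 CPM with DMSO. Its differences were -0.18 (95% interval -0.72 to 0.36) in eIF1 and 0.14 (-0.54 to 0.82) in eIF4G1. The difference was 0.45 (-0.40 to 1.31) in eIF2a and 0.63 (-0.73 to 1.98) in eIF3. In eIF2a a DMSO library had 0 counts and both i14G1-12 libraries were the higher ones (so for 20.4% of genes). The eIF2a value was 0.85 with DESeq2 and 0.30 without the library at 0 counts, and it has no finite size when that library is the lone DMSO library. The eIF3 value lay between 0.29 and 0.95 with any 1 library left out. None passed the test, and the 1245 counts of EIF5B over all 20 libraries leave these intervals wide.

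**Figure D4:**
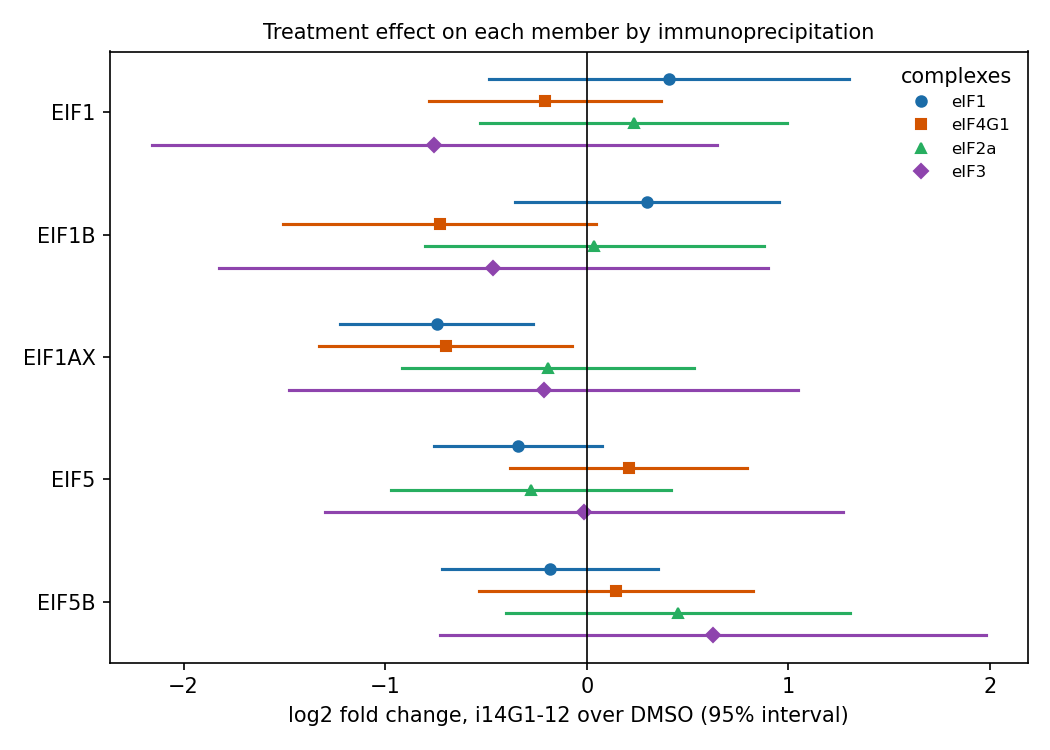
Log2 fold change of i14G1-12 over DMSO for each gene, with its 95% interval from the edgeR fit, for complexes of eIF1, eIF4G1, eIF2a and eIF3. The intervals of EIF1AX in eIF1 (-1.22 to -0.27) and eIF4G1 (-1.33 to -0.07) exclude 0 without adjustment for the other genes, and all the other intervals include it.

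Between treatments, the 5 genes did not share a direction in eIF1, eIF4G1 or eIF2a complexes, and in eIF3 complexes 4 of 5 had a negative difference. The median log2 difference over the 5 was -0.18 in eIF1 complexes (3 of 5 lower with i14G1-12), beside 0.00 over all genes tested (49.6% lower). It was -0.21 in eIF4G1 complexes (3 of 5 lower), beside -0.01 (50.4% lower). It was 0.04 in eIF2a (2 of 5 lower), beside 0.06 (43.5% lower), and -0.21 in eIF3 (4 of 5 lower), beside 0.02 (48.6% lower). Under other scalings the sign turned for EIF5B in eIF4G1, EIF1B in eIF2a and EIF5 in eIF3, whose differences lay near 0. In eIF3 complexes against the mean of eIF4G1 and eIF2a, all 5 differences were negative in both treatments. Their median was -0.65 with i14G1-12, beside 0.02 over all genes (49.0% lower), and -0.44 with DMSO, beside 0.05 (46.1% lower). The EIF1 difference with DMSO became 0.16 without library 2 of eIF3 with DMSO and 0.11 without library 1 of eIF2a with DMSO.

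The genes whose pattern over the 20 libraries was most like that of EIF1 were still far from it. Likeness was the root mean square difference of log2 CPM, each gene centred on its own mean, among 4355 genes with a mean of at least 50 CPM. For EIF1 the nearest were ENSG00000134574, at 1.55, and ENSG00000117318, at 1.80, against a median of 2.81 over all genes. With a minimum mean of 100 CPM the first of these was no longer among the candidates. ENSG00000134574 had a mean of 237 CPM in eIF1 libraries and of 29.97 CPM in the others. It thus passed the minimum of 50 CPM only through the eIF1 libraries. ENSG00000117318, with means of 325 and 55.4 CPM, passed that of 100 CPM in the same way. The level of EIF1 in the eIF1 libraries was known beforehand and enters this likeness, which is a description without a test. For EIF5 the nearest were ENSG00000105640, at 0.269, and ENSG00000166508, at 0.277, against a median of 0.880, and these were the nearest at 100 CPM as well. ENSG00000105640 had a mean of 888 CPM in eIF1 libraries and of 530.5 CPM in the others.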

How the data were processed

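The deposited values were unnormalized read counts, in a table for each of the 4 immunoprecipitations, with the columns that featureCounts writes, per the file headers. featureCounts, HISAT2, Bowtie, Trimmomatic and cutadapt are named for hg38 per the submitters' processing notes; versions, and the handling of reads that fit several genes, are not given in the sources used here. Each ID has 1 counted sequence. Symbols of the 5 genes are those under which they were chosen; the genes and comparisons were chosen with earlier results of these data known.

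Treatment effects were tested with edgeR 4.0.16 in R 4.3.3 (quasi-likelihood, filterByExpr with a minimum count of 10, TMM), each immunoprecipitation alone. Differences between immunoprecipitations and between effects were contrasts of 1 fit to all 20 libraries. P-values were adjusted over all genes tested by Benjamini-Hochberg, with a threshold of 0.05. An SE is the absolute log2 difference over the square root of F. CPM in the text are on 1 TMM scale of all 20 libraries. The fit was tested on simulated data. Alternatives were other scalings, other filters, DESeq2 1.42.0, all libraries in 1 fit, a replicate block, and leaving out single libraries. No library repeated another: within groups, chi-square per degree of freedom was 1.43 to 11.2.

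All 5 genes are named, and the nearest 2 genes by likeness to EIF1 and to EIF5. A list of partner factors and eIF3 subunits was not analysed here, because the reference table used pairs no Ensembl IDs with symbols. Libraries of the same number in the 2 treatments were not paired: for eIF4G1 their deviations correlated at 0.018, -0.111 and -0.176 over 4356 genes. For eIF2a, with 2 pairs, r was -0.0225, and for eIF3 0.553. With 2 pairs such values cannot decide on pairing, and the main eIF3 tests leave a possible pairing out. With the replicate number as a block, the genes called in eIF3 complexes went from 1 to 24. The eIF1 columns carry no replicate number of the labels.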

Additional observations from a re-analysis of the deposited data

Results flagged for a closer look

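EIF5 is listed here because its difference between i14G1-12 and DMSO ran in opposite directions in 2 immunoprecipitations, with every i14G1-12 library below every DMSO library in eIF1 complexes and above every DMSO library in eIF4G1 complexes. This was so on the TMM scale, and as a share of raw counts the eIF4G1 groups overlapped. The effect in eIF4G1, fitted on its own libraries, minus that in eIF1, fitted on its own libraries, was 0.55 on the log2 scale. Tested in 1 fit to all 20 libraries, the effect in eIF1 minus that in eIF4G1 was -0.51 (SE 0.44, unadjusted p = 0.250, edgeR adjusted p = 0.9999), and did not pass. No group of 4 or more libraries was available for a test of outlying libraries.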

How the results depend on the processing

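The count of 0 of the 5 genes called was the same in 155 repeats over the 11 comparisons and differed in 1. DESeq2 called 1 gene, EIF1AX, in eIF1 complexes (log2 difference -0.73), where edgeR called 0. Of the log2 differences of single genes, 488 kept their sign and their side of the threshold, 39 changed sign and 1, that of EIF1AX in eIF1 complexes under DESeq2, passed the threshold. With total counts only, the difference became -0.017 for EIF5B in eIF4G1 and -0.015 for EIF1B in eIF2a complexes, and a minimum count of 30 gave -0.0040 for EIF1B in eIF2a. EIF5 in eIF3 became 0.0013 with DESeq2 size factors, 0.029 with the DESeq2 test and 0.048 with the replicate number as a block, and the EIF1AX interaction became 0.042 with DESeq2 size factors and 0.038 with its test. An alternative chosen after the data were seen left out eIF2a DMSO 2, eIF3 DMSO 2 and eIF3 i14G1-12 2; it gave -0.089 for EIF1B in eIF2a, 0.10 for EIF5 in eIF3 and -0.021 for EIF5 in eIF4G1 against the mean of the other 2 with i14G1-12. The causes were not tested. Total counts alone moved the median of all genes by -0.13 in eIF1 and -0.15 in eIF4G1 complexes. With single libraries left out, differences in eIF1 complexes spanned -0.39 to 1.00 for EIF1, -0.44 to 0.64 for EIF1B (both lowest without i14G1-12 library a) and -0.29 to 0.076 for EIF5B. In eIF4G1 they spanned -0.10 to 0.35 for EIF5B and -0.44 to 0.13 for EIF1. In eIF2a they spanned -0.37 to 0.33 for EIF1AX, -0.37 to 0.36 for EIF5 and -0.067 to 1.37 for EIF1B, and in eIF3 -0.87 to 0.48 for EIF1B, -0.47 to 0.16 for EIF1AX and -0.42 to 0.36 for EIF5. The interaction spanned -0.18 to 1.28 for EIF1 and -0.27 to 0.17 for EIF1AX. Against the mean of the other 2, EIF5 in eIF4G1 spanned -0.018 to 0.34 with i14G1-12 and -0.26 to 0.30 with DMSO, EIF5 in eIF2a -0.072 to 1.04 with DMSO, EIF1 in eIF2a -0.29 to 0.0010 with i14G1-12, and EIF1 in eIF3 -0.80 to 0.16 with DMSO. Where this left 1 library in a group, the lone library was assumed to vary like the others. Counts of genes called over all genes moved more. In eIF1 complexes 38 became 129 without a filter, 70 with a minimum count of 30, 174 with DESeq2, 4 with all 20 libraries in 1 fit and 2 to 65 with single libraries left out; in eIF4G1, 25 became 68, 42, 97 and 30 in the same settings and 4 to 46. In eIF2a, 0 became at most 13 without a library. In eIF3, 1 became 2 without a filter, 3 with DESeq2, 5 in 1 fit, 24 with the replicate block and 4 in the added alternative. The interaction's 3 became 1 to 4. For eIF4G1 against the mean of the others, 33 became 9 to 266 with i14G1-12 and 9 became 1 to 16 with DMSO; for eIF2a 4 became 0 to 35 and 6 became 0 to 8; for eIF3 129 became 5 to 594 and 2 became 0 to 30. The replicate block changed no call of the 5 genes in eIF4G1, eIF2a or eIF3 (EIF1AX in eIF4G1: -0.76). Depth limits EIF5B and EIF1B most, since single libraries held as few as 0 and 1 counts of them.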
